A study of Rattus norvegicus with 6 samples.

Results

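Fibroblasts of adult tissues keep part of the homeobox and T-box code that laid out the body in the embryo, and the transcripts of that code were examined here in cultured synovial fibroblast-like cells of the rat. The genes were taken by symbol: all Hox genes (Hoxa to Hoxd), the T-box genes, the Pitx, Prrx, Meox, Meis, Pbx, Msx, Dlx, Barx and Sim families, Six3, Six4 and their relatives, Shox2, En1, Lmx1b, Twist1 and Twist2. This rule found 68 genes (70 transcript rows, of which the most abundant row per symbol was kept) among the 16499 gene symbols of the deposited table. A gene was called expressed where both libraries of at least 1 culture setting reached 1 CPM (reads scaled to library size), and 44 of the 68 genes were expressed. Of the others, 12 had reads below that level and 12 had no read in any library. Over the whole deposited table, 9820 of 17221 transcript rows reached the same level and 4567 had no read. No row carried the symbols En1 or Lmx1b, and several Hox genes had no row either, so these were not analysed here.

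The cells were adherent cells digested from the synovium of 2 female Wistar rats with collagen-induced arthritis, a model of rheumatoid arthritis, and expanded over several passages. Cells of each rat were divided over 3 settings, namely standard medium with fetal bovine serum (FBS), medium with blood serum from untreated rats (MS−), and medium with blood serum drawn at day 18 from rats given mechanical stimulation by needle (MS+). This gave 6 libraries, 1 per rat and setting, from poly(A)-enriched RNA. All 6 libraries therefore come from arthritic animals, and none from a healthy joint. The labels state neither the age of the rats, nor the joint that gave the tissue, nor how many animals gave each serum. A description field of the MS− libraries calls the rats healthy, against their title and disease field, and the study describes the MS− serum both as drawn before therapy and as drawn from untreated animals. A replicate is thus 1 rat's culture, and p-values measure only the spread between the cultures of 2 rats.

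Hox genes lie in 4 clusters, HoxA to HoxD, and are switched on along the body axis in the order in which they lie. Genes of low number mark anterior levels, and those of high number mark posterior levels and, in HoxA and HoxD, the distal parts of the limb. Pbx and Meis proteins are the DNA-binding partners of Hox proteins. Pitx1 and Tbx4 are factors of the hindlimb bud, Tbx5 is the factor of the forelimb bud, and Prrx1, Prrx2, Shox2, Msx1, Msx2 and Twist1 act in limb mesenchyme in general.

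The 6 libraries held 5463316 to 5991889 reads, so that a floor of 3 reads corresponded to 0.491 to 0.551 CPM. CPM values are not corrected for transcript length, which the table does not give, and levels are therefore compared between libraries and not between genes. All values below are in CPM, with rat 1 given before rat 2, and differences are on the log2(CPM + 1) scale. Of 16 markers of synovial fibroblasts, 13 were expressed, with a summed level of 62927 to 88101 CPM. Collagen I, collagen III, Vim, Thy1 and Pdgfrb were among them, but the fibroblast markers Dcn, Lum and Vcam1 stayed below 1 CPM in every library. The lubricin gene Prg4, which defines the synovial lining, reached 1.27 to 3.32 CPM. Among markers of other cell types, Ptprc (leukocytes), Cdh5 (endothelium), Epcam (epithelium), Pax7 (muscle stem cells), Sp7 (osteoblasts) and Sox10 (Schwann cells) had 0 reads in all 6 libraries. Other genes of the same lists were expressed, namely the bone factor Runx2 at 28.5 to 44.3 CPM, the nerve genes S100b at 19.8 to 37.1 CPM and Tubb3 at 15.7 to 59.8 CPM, the monocyte gene Cd14 at 12.1 to 19.4 CPM and the muscle gene Tnnt3 at 5.06 to 7.87 CPM. Acan, a proteoglycan gene of cartilage, stood at 1453 to 3012 CPM, and the sarcomeric actin gene Acta1 at 766 to 1199.9 CPM. The main collagen and mesenchymal markers thus fit the label of fibroblast-like cells, while the lining gene Prg4 was low and 3 common fibroblast markers were near 0.

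Of the 23 Hox genes in the table, 13 were expressed, beside 9820 of the 17221 rows of the whole table. The 13 came from HoxA, HoxC and HoxD. All 5 HoxA genes, 4 of 5 HoxC genes and 4 of 6 HoxD genes were expressed, against none of 7 HoxB genes. In HoxB, Hoxb7, Hoxb8 and Hoxb13 had 0 reads in every library, which allows up to 0.551 CPM in the shallowest library, and Hoxb9 had 1 read in all. The HoxB gene with the most reads was Hoxb3, with 0 to 3 reads per library. The 7 HoxB genes were therefore at or under the floor of detection in the cells of both rats and in all 3 sera.

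**Figure D1:**
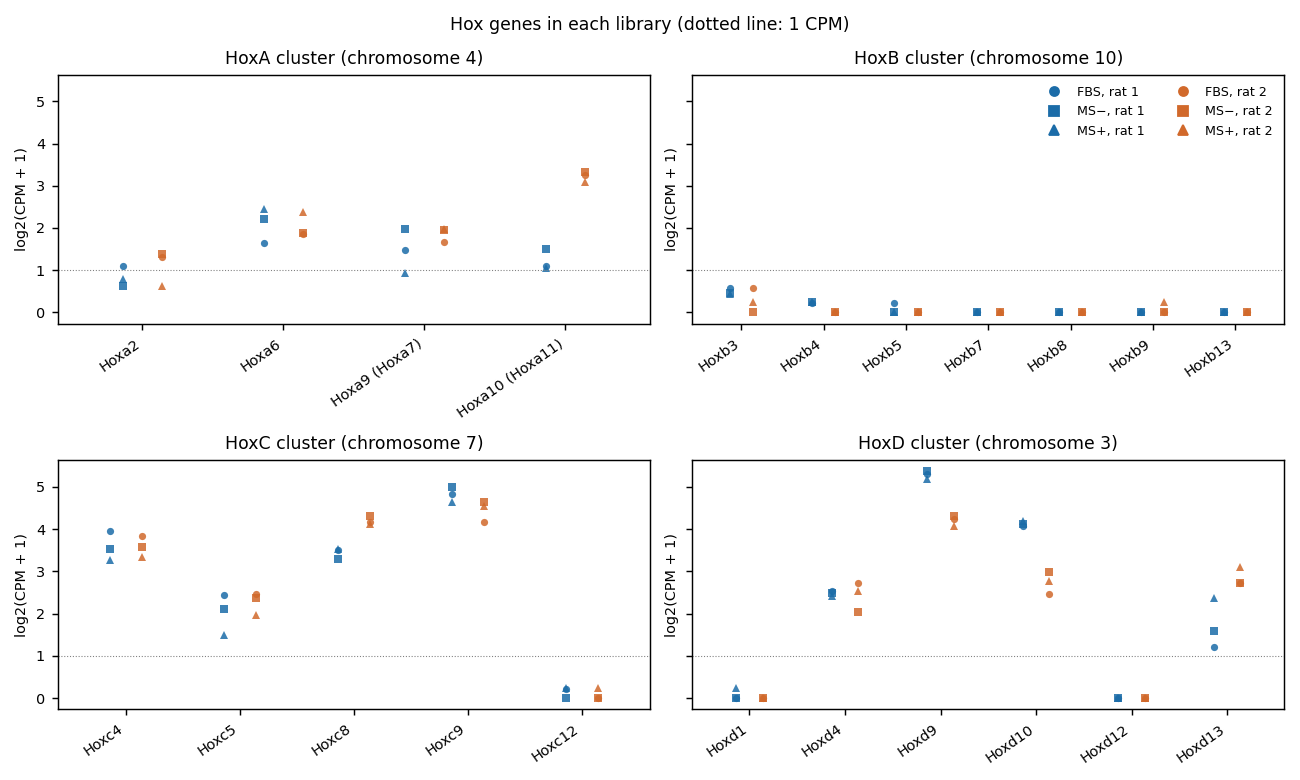
Level of Hox genes in each library, on a log2(CPM + 1) axis, 1 panel per cluster; colours mark the rat, symbols mark the serum, and the dotted line lies at 1 CPM. HoxB stays below the line, and Hoxd12 lies at 0 between expressed neighbours. Hoxa11 (listed as Hoxa10), Hoxd9 and Hoxd10 separate by rat rather than by serum. Hoxd13 separates by rat and is also highest in MS+ within each rat.

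Symbols of HoxA need care. The row listed as Hoxa9 (NM_001109233, chr4:80515622-80517521, minus strand of rn4) carries an accession that RefSeq assigns to Hoxa7 in the GRCr8 assembly. The row listed as Hoxa10 (NM_001129878, chr4:80542417-80546079, minus strand) is Hoxa11 by its accession. They are called Hoxa7 and Hoxa11 from here on. Hoxa7 stood at 1.80 and 2.16 CPM in FBS, 2.93 and 2.89 CPM in MS−, and 0.901 and 2.94 CPM in MS+. Its MS+ library of rat 1 rests on 5 reads and is the lowest, and the settings overlap.

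Hoxa11, which patterns the forearm and lower leg and is the most 5′ HoxA gene in the table, stood at 1.15 and 8.62 CPM in FBS, 1.83 and 9.04 CPM in MS−, and 1.08 and 7.52 CPM in MS+. Every library of rat 2 was above every library of rat 1, which held 6 to 10 reads. At 1 end the row overlaps a transcript on the opposite strand, RGD1564419 (chr4:80545394-80550077), listed as Hoxa11-as in GRCr8, and the study does not state whether reads were counted by strand. That antisense row had 4 and 16 reads in FBS, 2 and 10 in MS− and 2 and 15 in MS+. Both rows were higher in rat 2, and in the stretch they share, reads of the pair cannot be told apart without strand. On the 3′ side, Hoxa2 and Hoxa6 ranged from 0.549 to 4.50 CPM with overlapping rats.

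HoxC was expressed at 4, 5, 8 and 9 and was near 0 at Hoxc12, which had 3 reads in all. Hoxc9, a trunk and hindlimb level gene (chr7:141745173-141747847, plus strand), stood at 27.7 and 16.9 CPM in FBS, 30.7 and 24.0 CPM in MS−, and 24.1 and 22.4 CPM in MS+. Hoxc4, of the neck and upper thoracic level, stood at 14.4 and 13.3 CPM in FBS, 10.6 and 10.8 CPM in MS−, and 8.65 and 9.18 CPM in MS+. The 3 sera did not overlap for Hoxc4, and the MS+ libraries were the lowest. Here and below, the share of all features whose sera did not overlap was not counted. Hoxc5 stood at 4.42 and 4.48 CPM in FBS, 3.29 and 4.16 CPM in MS−, and 1.80 and 2.94 CPM in MS+. Its order of sera was the same, with 10 to 27 reads per library, and its row spans that of Mir615. Hoxc8 ranged from 8.78 to 10.5 CPM in rat 1 and from 16.5 to 18.8 CPM in rat 2.

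The HoxD cluster, on chromosome 3, showed opposite differences between the rats along its length. Hoxd13, the most 5′ gene and a digit factor (chr3:57283682-57286998, plus strand), stood at 1.31 and 5.64 CPM in FBS, 2.01 and 5.60 CPM in MS−, and 4.14 and 7.52 CPM in MS+. It was higher in rat 2 in each setting, by 1.13 on the log2 scale on average. Hoxd12, which lies next to it, had 0 reads in all 6 libraries.

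Hoxd10 (chr3:57306064-57309273, plus strand) stood at 15.9 and 4.48 CPM in FBS, 16.5 and 6.87 CPM in MS−, and 17.3 and 5.87 CPM in MS+. Hoxd9 (chr3:57312123-57314510, plus strand) stood at 38.8 and 17.7 CPM in FBS, 40.2 and 18.8 CPM in MS−, and 35.5 and 15.8 CPM in MS+. Both genes, which specify lumbosacral and proximal limb levels, were lower in every library of rat 2 than in any of rat 1. The difference of rat 2 from rat 1 was −1.40 for Hoxd10 and −1.09 for Hoxd9, and it varied over the 3 settings from −1.62 to −1.15 and from −1.12 to −1.06. Hoxd4, on the 3′ side, ranged from 3.07 to 5.64 CPM with overlapping rats, and its span includes Mir10b. Hoxd1 had 1 read. Along the cluster the rat difference was thus positive at Hoxd13, negative at the neighbours Hoxd10 and Hoxd9, and −0.04 at Hoxd4.

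Hoxd10 and Hoxd9 are neighbours that moved together between the rats, and the 250 bases before their start sites are shown for that reason. The sequences are from RefSeq (GRCr8, plus strand, 5′ to 3′, chr3:80001697-80001946 and chr3:80007756-80008005). Capitals mark matches on either strand to CCAAT (read ATTGG on the other strand), the CCAAT box, and to CACGTG, the canonical E-box. Both promoters hold CCAAT, found in 34.0% of 33469 rat promoter windows of this length, and 1 CACGTG, found in 5.59%. Neither holds TATAAA, the TATA box (12.9% of windows), or TAATTA, a homeodomain core (4.86%). The window of Hoxa11, which also differed between the rats, holds none of these motifs. The matches describe these letters and were not tested for binding.
Hoxd10: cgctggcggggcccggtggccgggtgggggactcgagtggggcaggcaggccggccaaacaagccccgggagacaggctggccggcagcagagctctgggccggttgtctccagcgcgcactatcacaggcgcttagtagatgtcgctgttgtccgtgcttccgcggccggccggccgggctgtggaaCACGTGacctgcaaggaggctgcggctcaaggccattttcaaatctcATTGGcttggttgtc
Hoxd9: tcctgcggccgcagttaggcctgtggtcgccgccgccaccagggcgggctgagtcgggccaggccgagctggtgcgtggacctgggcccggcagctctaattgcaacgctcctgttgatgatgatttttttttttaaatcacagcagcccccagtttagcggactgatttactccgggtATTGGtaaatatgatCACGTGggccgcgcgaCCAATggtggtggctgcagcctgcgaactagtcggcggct

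Limb identity genes were expressed in a mixed way. Pitx1 (chr17:14834144-14840303, plus strand), a hindlimb factor, stood at 76.0 and 75.3 CPM in FBS, 61.3 and 66.9 CPM in MS−, and 42.0 and 59.5 CPM in MS+. Tbx4, its partner in the hindlimb bud (chr10:74136416-74166080, plus strand), had 0 and 4 reads in FBS, 1 and 2 in MS−, and 2 and 4 in MS+, and thus at most 0.734 CPM. Tbx5, the forelimb factor (chr12:37956658-38004255, minus strand), stood at 12.4 and 6.30 CPM in FBS, 9.51 and 10.5 CPM in MS−, and 13.2 and 10.6 CPM in MS+. Pitx1 and Tbx5 were found together in every library of both rats, while Tbx4 was at or near the floor. Whether the same cells hold both transcripts cannot be told from bulk RNA.

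Of the T-box genes, 6 of 12 were expressed, beside 9820 of the 17221 rows of the whole table. Tbx3, which acts at the posterior and anterior limb margins, had one of the widest ranges over the libraries, with 3.77 and 11.8 CPM in FBS, 2.20 and 14.8 CPM in MS−, and 1.44 and 12.3 CPM in MS+ (chr12:38155494-38166670, minus strand). Its near relative Tbx2 (chr10:74085203-74092988, plus strand) stood at 13.4 and 12.6 CPM in FBS, 16.3 and 14.3 CPM in MS−, and 12.6 and 11.6 CPM in MS+. Tbx3 separated the rats without overlap and Tbx2 did not. Tbx15, a factor of limb and trunk skeleton, stood at 43.5 and 40.1 CPM in FBS, 37.7 and 45.9 CPM in MS−, and 37.7 and 47.5 CPM in MS+, which was among the 3 smallest ranges of the expressed genes (0.33 on the log2 scale). Tbx18, a factor of mesenchyme and pericytes (chr8:92984336-93012343, minus strand), stood at 200.9 and 141 CPM in FBS, 156 and 107 CPM in MS−, and 121 and 67.9 CPM in MS+. Within each rat it followed the order FBS, MS−, MS+ from high to low. The lowly expressed Tbx19 ranged from 0 to 1.16 CPM, and Tbx1, Tbx20, Tbx21 and Tbx22 had no read.

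The paired-type genes of limb mesenchyme were expressed in both rats. Prrx1 (chr13:78961648-79028881, minus strand) stood at 110.2 and 181 CPM in FBS, 178 and 231 CPM in MS−, and 191 and 188 CPM in MS+. Prrx2 (chr3:9899066-9936837, plus strand) stood at 106 and 71.6 CPM in FBS, 32.2 and 27.7 CPM in MS−, and 27.7 and 30.5 CPM in MS+. Both FBS libraries of Prrx2 were above all 4 libraries with rat serum, whereas for Prrx1 the FBS library of rat 1 alone was low. Shox2, of the proximal limb segment, was among the 3 genes with the smallest range, at 71.7 and 89.4 CPM in FBS, 84.0 and 92.6 CPM in MS−, and 82.7 and 83.7 CPM in MS+. Twist1, a basic helix-loop-helix factor of mesenchyme, stood at 38.8 and 45.6 CPM in FBS, 33.7 and 47.7 CPM in MS−, and 24.0 and 39.6 CPM in MS+. Twist2 ranged from 1.83 to 7.89 CPM.

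**Figure D2:**
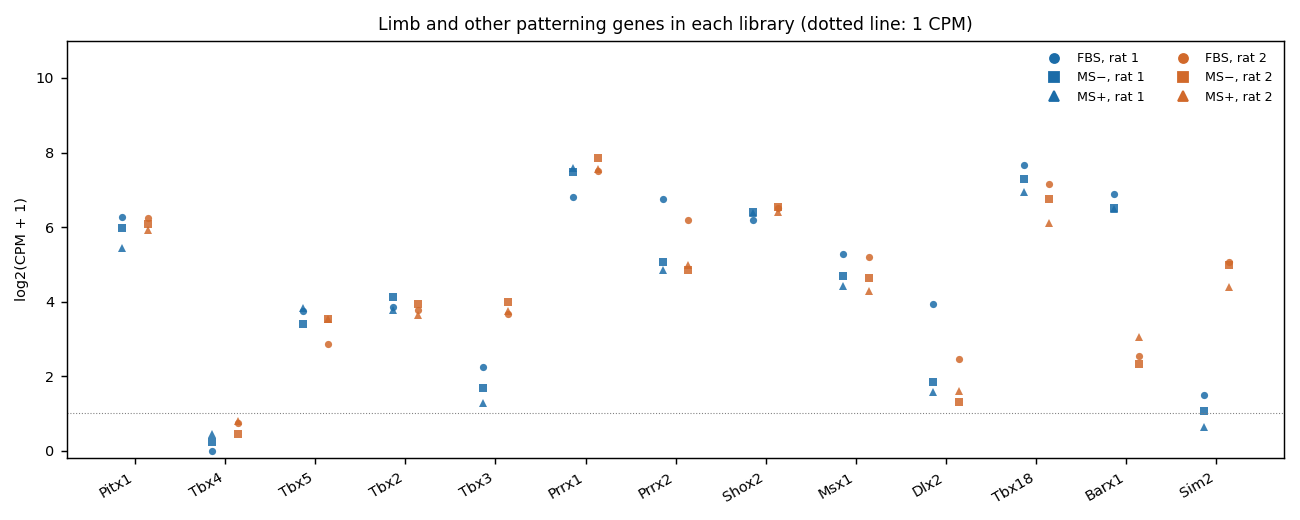
Level of 13 limb and other patterning genes in each library, on a log2(CPM + 1) axis; colours mark the rat, symbols mark the serum, and the dotted line lies at 1 CPM. Tbx4 stays below the line beside expressed Pitx1 and Tbx5, the circles of Prrx2 and Msx1 (FBS) lie above the other symbols, and Tbx3, Barx1 and Sim2 separate by rat.

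The partners of Hox proteins were expressed in all 6 libraries, with the exception of Pbx4, which had 0 to 10 reads. Pbx2 stood at 53.5 and 50.4 CPM in FBS, 44.6 and 46.8 CPM in MS−, and 43.1 and 44.8 CPM in MS+, the smallest range of the 44 expressed genes (0.31 on the log2 scale). Its row overlaps C4b. Pbx3 stood at 71.0 and 85.4 CPM in FBS, 69.3 and 85.9 CPM in MS−, and 65.0 and 73.8 CPM in MS+. Meis1 stood at 39.3 and 34.2 CPM in FBS, 44.3 and 41.2 CPM in MS−, and 39.6 and 41.5 CPM in MS+. The ranges of Pbx3 and Meis1 over the 6 libraries were 0.40 and 0.36 on the log2 scale, below the median of 0.98 over the 44 genes. Meis2 ranged from 7.13 to 11.5 CPM, and Meis3 from 22.2 to 32.1 CPM.

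Homeobox genes of epithelial-mesenchymal signalling and of sense organ and muscle development were expressed too. Msx1, a target of BMP signalling (chr14:78257345-78261144, plus strand), stood at 37.5 and 35.3 CPM in FBS, 24.7 and 23.7 CPM in MS−, and 20.4 and 18.4 CPM in MS+. The 3 sera did not overlap for Msx1, and the rats lay close together in each, but the share of all features separated in this way was not counted. Msx2, its paralog, ranged from 26.5 to 36.2 CPM with overlapping sera. Dlx1 and Dlx2 are neighbours on chromosome 3, and Dlx3 and Dlx4 on chromosome 10. Dlx2 stood at 14.4 and 4.48 CPM in FBS, 2.56 and 1.45 CPM in MS−, and 1.98 and 2.02 CPM in MS+. Dlx1 stood at 9.003 and 5.31 CPM in FBS, 4.39 and 2.53 CPM in MS−, and 4.50 and 2.20 CPM in MS+. Dlx3 stood at 12.9 and 6.47 CPM in FBS, 3.29 and 3.98 CPM in MS−, and 2.52 and 5.51 CPM in MS+. For all 3 genes both FBS libraries were above the 4 others, and the FBS library of rat 1 was the highest. Dlx4 and Dlx5 ranged from 0.180 to 2.75 CPM and from 1.31 to 4.34 CPM.

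Six4, a homeobox gene of muscle and sensory placodes, stood at 4.91 and 7.13 CPM in FBS, 5.12 and 8.13 CPM in MS−, and 7.75 and 11.2 CPM in MS+. Within each rat Six4 was highest in MS+. Meox2, a factor of somites and limb muscle, stood at 21.1 and 26.9 CPM in FBS, 17.6 and 26.8 CPM in MS−, and 13.7 and 18.2 CPM in MS+. Six3 ranged from 1.81 to 7.04 CPM, and Pitx3, Meox1 and Six6 had no read.

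Barx1 and Sim2 had the widest ranges of all, and in opposite directions. Barx1, a homeobox gene of jaw, stomach and joint mesenchyme (chr17:21993765-21997240, minus strand), stood at 116 and 4.81 CPM in FBS, 89.5 and 3.98 CPM in MS−, and 88.5 and 7.34 CPM in MS+. Sim2, a basic helix-loop-helix PAS factor (chr11:34335645-34376925, plus strand), stood at 1.80 and 32.3 CPM in FBS, 1.10 and 30.4 CPM in MS−, and 0.541 and 20.0 CPM in MS+. Barx1 averaged 98.1 ± 15.8 CPM (SD over the 3 cultures of rat 1) against 5.38 ± 1.75 CPM in rat 2, an 18.3-fold difference. Sim2 averaged 27.6 ± 6.62 CPM in rat 2 against 1.15 ± 0.631 CPM in rat 1, a 24.1-fold difference that rests on 3 to 11 reads per library of rat 1.

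The stability of this code was examined first between the 2 rats, as a description with no test, because the 3 cultures of a rat are not separate animals. A gene was counted where rat 2 differed from rat 1 by 2-fold or more, on the log2(CPM + 1) scale, in the same direction in all 3 settings. Of the 44 expressed genes, 6 (13.6%) met this, against 0.916% of the 9820 features tested. Sim2, Tbx3 and Hoxa11 were higher in rat 2 (3 genes, against 0.591% of all features), by 3.75, 2.06 and 2.01 on average. Barx1, Hoxd10 and Hoxd9 were lower in rat 2 (3 genes, against 0.326%), with mean differences of −3.98, −1.40 and −1.09. In CPM, Hoxa11 was 6.21-fold and Tbx3 5.25-fold higher in rat 2, and Hoxd10 was 2.88-fold and Hoxd9 2.19-fold higher in rat 1. At a limit of 1.5-fold, Hoxd13 and Hoxc8 (higher in rat 2) and Dlx1 (lower) joined them.

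**Figure D3:**
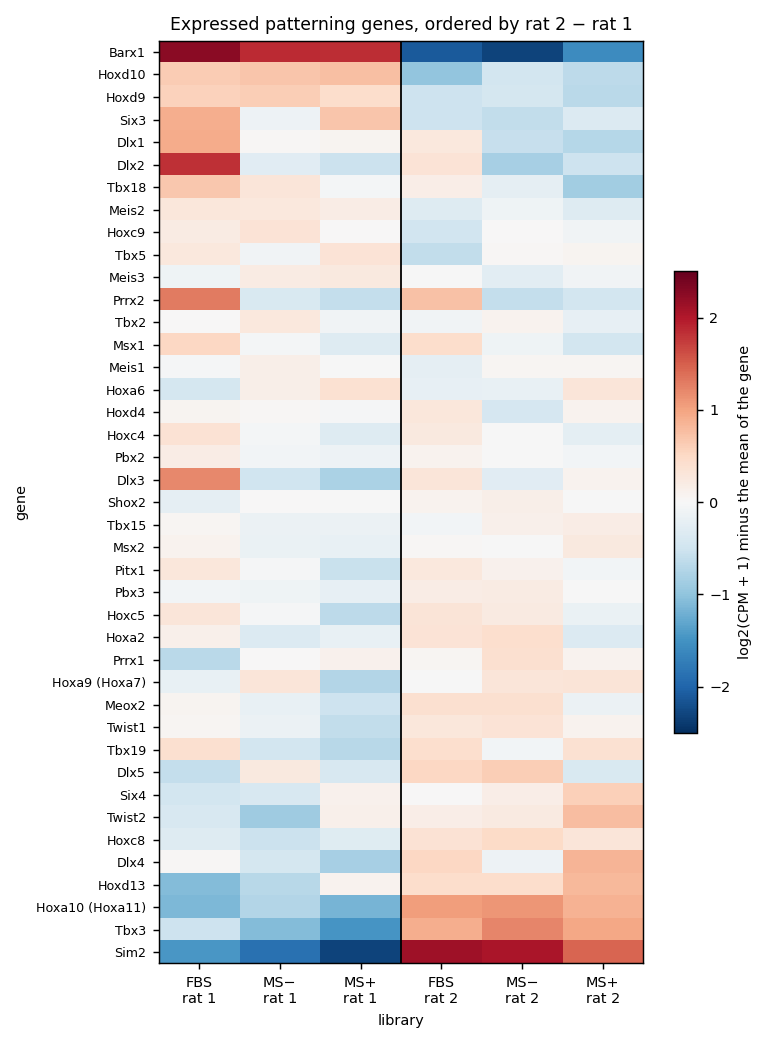
Each row is an expressed patterning gene and each column 1 library, with rat 1 left of the black line; colour gives log2(CPM + 1) minus the gene's mean over the 6 libraries. The top and bottom rows, Barx1 and Sim2, change colour at the black line, whereas Prrx2, Dlx2 and Dlx3 are red in the FBS columns.

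Across the 44 genes, the median size of the mean rat difference was 0.37 on the log2 scale, against 0.13 over all features tested. The mean rat difference exceeded the range of the 3 serum means for 18 of the 44 genes (40.9%), against 19% of all features. The median range over the 6 libraries was 0.98, against 0.58. In the profile of the 44 genes, libraries of the same rat in different sera correlated at Pearson's r of 0.93 to 0.98, and those of different rats in the same serum at 0.80 to 0.83. Over all features tested the same pairs gave 0.96 to 0.98 and 0.98. For the 13 expressed Hox genes alone they gave 0.92 to 0.97 and 0.73 to 0.79. These correlations run across genes, which are not independent replicates, and the libraries share their scaling, so they are given without a p. Pearson's r also depends on how widely levels spread within a set of genes. It can therefore be compared within a set but not directly between sets.

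Markers of other cell types were compared between the rats beside these values. The 12 skeletal muscle genes summed to 922 to 1209 CPM in rat 1 and 777 to 1036 CPM in rat 2, nearly all of it Acta1, with Pax7, Myf5 and Myf6 at 0. The 8 cartilage and bone genes in the table, of which 3 were expressed, summed to 1498 to 2702 CPM in rat 1 and 1882 to 3059 CPM in rat 2, with Sp7 at 0. The 16 fibroblast genes summed to 62927 to 88101 CPM in rat 1 and 65531 to 81250 CPM in rat 2. These 3 sums overlapped between the rats. The cartilage and bone sum was mostly Acan and the fibroblast sum mostly collagen I, so the sums say little of the other genes. In these lists Cdh11, Pdgfra and Ibsp, picked out after their values were seen, were higher in every library of rat 2 than in any of rat 1. Pdgfra stood at 124 to 156 CPM in rat 1 and 168 to 228 CPM in rat 2. The 5 epithelial genes in the table summed to 0.183 to 0.721 CPM in rat 1 and 0.904 to 1.28 CPM in rat 2, from Krt8 alone, with Epcam and Cdh1 at 0. Their part in the rat differences was not tested. In bulk RNA, fewer cells that express a gene and less of its RNA per cell cannot be told apart. Whatever separates the 2 primary cultures, from the site of dissection to the passage, cannot be told apart from the animal.

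The comparison of MS+ with MS− sets serum of stimulated animals against serum of untreated ones. MS+ serum was drawn at day 18, and the study also describes MS− serum as drawn before therapy. In that case stimulation and the day of drawing cannot be told apart. None of the 44 genes passed limma's test at an adjusted p (Benjamini-Hochberg over all 9820 features) under 0.05, and 0.0204% of all features passed. At an unadjusted p under 0.05 there was 1 gene, Msx1, against 14.7% of all features, and its difference was −0.31. No patterning gene was called by edgeR, DESeq2 or limma-voom on the recovered reads either, also without adjustment. The study's rule asks for at least a 2-fold change and an unadjusted p under 0.05. Applied here to the log2(CPM + 1) differences, where the study used limma-voom values, it called 0 genes, against 1.24% of features. The labels name the same 2 rats in each setting, and with the rat as a block 1 gene passed, against 10.1% of all features and 4.78% called lower. This was Tbx18, which was lower in MS+ by −0.36 in rat 1 and −0.65 in rat 2 (mean −0.50 ± 0.10 SE, limma adjusted p = 0.00401 with the block, 0.521 without it, and 0.00401 to 0.94 over all alternatives). The median size of the difference was 0.24 over the 44 genes and 0.17 over all features. The difference was above 0 for 16 of the 44 genes, and for 4812 of all 9820 features.

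The comparison of MS+ with FBS asks what rat serum after stimulation changes relative to standard medium. Prrx2 and Msx1 were lower in MS+, and these 2 of 44 genes compare with 9.61% of all features called in either direction and 4.66% called lower. Prrx2 averaged 88.9 ± 24.5 CPM in FBS and 29.1 ± 1.92 CPM in MS+ (mean ± SD, n = 2), a log2 difference of −1.55 ± 0.19 (SE, limma adjusted p = 0.0082). It was lower in both rats, by −1.90 and −1.21. Msx1 averaged 36.4 ± 1.54 CPM in FBS and 19.4 ± 1.42 CPM in MS+, a log2 difference of −0.88 ± 0.13 (SE, limma adjusted p = 0.0114), with −0.85 and −0.91 in the rats. The call of Prrx2 was lost without the MS+ library of rat 1 (limma adjusted p = 0.0689) or of rat 2 (0.0506). That of Msx1 was lost without the FBS library of rat 1 (0.074) or rat 2 (0.0535) and without the MS+ library of rat 1 (0.065) or rat 2 (0.0672).

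The rule of the study, on the log2(CPM + 1) scale, called 3 genes in this comparison, all lower in MS+: Prrx2, Dlx2 and Dlx3. This compares with 5.3% of features, and 2.92% called lower. Dlx1, at 7.15 CPM in FBS and 3.35 CPM in MS+ on average, was 2.13-fold lower in CPM (limma unadjusted p = 0.0459). Its difference on the log2 scale was −0.92, short of 2-fold, so the rule did not call it. Dlx2 differed by −2.37 in rat 1 and −0.86 in rat 2 (mean −1.61 ± 0.48 SE, limma adjusted p = 0.0825). Dlx3 differed by −1.98 in rat 1 but by −0.20 in rat 2 (mean −1.09 ± 0.39 SE, limma adjusted p = 0.129).

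With the rat as a block, 16 of the 44 genes passed in MS+ against FBS, against 28.2% of all features. Of these, 13 were lower, against 13.9% of all features, among them Prrx2, Msx1, Dlx1, Dlx2, Dlx3, Tbx18, Pitx1, Hoxc4, Hoxc5, Meox2, Sim2 and Twist1. Prrx1, Six4 and Hoxd13 were higher, 3 genes against 14.4% of all features. The differences were −0.88 for Tbx18, −0.59 for Pitx1, −0.58 for Hoxc4, −0.71 for Hoxc5 and 0.76 for Hoxd13, the last with 8 to 41 reads per library. In the fit without the block, leaving out the FBS library of rat 1 turned the difference of Hoxd13 to −0.0033. That of Sim2, −0.76, turned to 1.02 without the FBS library of rat 2 and to 1.12 without the MS+ library of rat 1. Of the Hox genes, 3 of 13 thus passed with the block. Hoxd9, Hoxd10, Hoxa11 and Hoxc9 did not pass in any of the 3 comparisons, with or without the block. Nor did Barx1 and Tbx3, whose differences in MS+ against FBS were 0.07 and −0.45, with standard errors of 1.87 and 1.00 in the fit without the block, in which the rats are the replicates.

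MS− against FBS asks the same of serum of untreated animals, and it shares the FBS libraries with the comparison before it. Prrx2 was lower in MS−, 1 of 44 genes against 4.81% of all features (2.72% called lower). It averaged 29.9 ± 3.21 CPM in MS−, a log2 difference of −1.52 ± 0.19 (SE, limma adjusted p = 0.00983), with −1.69 and −1.34 in the rats. This call was lost without the MS− library of rat 1 (0.0524) or rat 2 (0.0712). Msx1, at 24.2 ± 0.718 CPM in MS−, differed by −0.57 ± 0.13 (limma adjusted p = 0.0568). The study's rule called Prrx2, Dlx2 and Dlx3, all lower, against 3.62% of features and 2.37% called lower. With the block 7 genes passed, against 20.5% of features. Prrx1 was higher, by 0.52 (10.8% of features were called higher), and Prrx2, Msx1, Dlx1, Dlx2, Dlx3 and Tbx18, 6 genes, were lower (9.63%). No Hox gene was among them. Between the rat sera, MS+ against MS−, Prrx2 differed by −0.04 ± 0.19 (SE).

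**Figure D4:**
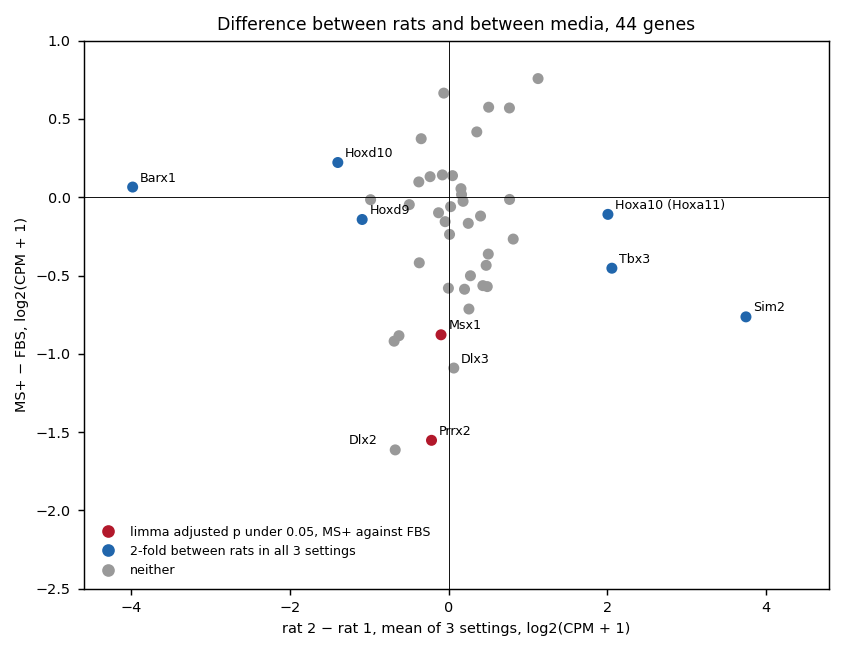
Each point is 1 of the 44 expressed genes, with the mean difference between the rats on the x axis and the difference between MS+ and FBS on the y axis, both on the log2(CPM + 1) scale. The 6 genes that differed 2-fold between the rats in all settings (blue) lie left and right of the middle, and Prrx2 and Msx1 (red, limma adjusted p under 0.05) lie low and near 0 on the x axis.

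Markers of other cells differed between the sera as well. The 16 fibroblast genes summed to 81250 to 88101 CPM in FBS, 62927 to 65531 CPM in MS− and 71391 to 74076 CPM in MS+. The cartilage and bone genes summed to 2627 to 3059 CPM in FBS, 1498 to 1882 CPM in MS− and 2586 to 2702 CPM in MS+. The 5 Schwann and nerve genes summed to 58.4 to 68.8 CPM in FBS, 45.7 to 56.9 CPM in MS− and 88.3 to 98.0 CPM in MS+, with Sox10 at 0. The 11 leukocyte and blood genes in the table, of which Ptprc, Itgam, Aif1 and Hbb were at 0, summed to 13.8 to 14.6 CPM in FBS, 17.2 to 20.5 CPM in MS− and 16.3 to 17.7 CPM in MS+, nearly all of it Cd14. The part of these in the falls of Prrx2 and Msx1 was not tested.

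The 250 bases before the start sites of Msx1 and Prrx2 are shown because both genes fell in MS+ against FBS in the fit without the block. The sequences are from RefSeq (GRCr8, plus strand, 5′ to 3′, chr14:77185552-77185801 and chr3:34530081-34530330), and capitals mark CCAAT on either strand. Msx1 holds 2 matches and Prrx2 none, and neither holds any of the other 3 motifs. They hold 24 and 23 CpG, against a median of 5 over all windows of this length. The windows of Hoxd10, Hoxd9 and Hoxa11, which differed between the rats, hold 21, 20 and 11 CpG, so a high count is not particular to Msx1 and Prrx2.
Msx1: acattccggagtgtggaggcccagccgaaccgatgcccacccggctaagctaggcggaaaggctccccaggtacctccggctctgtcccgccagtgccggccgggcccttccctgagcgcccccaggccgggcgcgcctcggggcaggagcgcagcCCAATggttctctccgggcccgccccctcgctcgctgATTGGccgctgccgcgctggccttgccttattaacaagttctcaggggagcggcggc
Prrx2: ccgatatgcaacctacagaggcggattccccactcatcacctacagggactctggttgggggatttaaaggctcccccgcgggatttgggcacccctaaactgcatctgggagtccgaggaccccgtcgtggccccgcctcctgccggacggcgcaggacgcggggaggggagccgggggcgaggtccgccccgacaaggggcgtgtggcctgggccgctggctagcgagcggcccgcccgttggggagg

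Genes that act around these factors were taken from 3 further lists. In the limb signalling list, with 18 of 36 genes tested, Gdf6 and Bmp2 rose and Smo fell in MS+ against FBS, and Gdf6 rose in MS− against FBS. These are 3 and 1 of 18 genes, beside 9.61% and 4.81% of all features, and with the block 3 rose and 2 fell in MS+ and 5 rose and 2 fell in MS− (28.2% and 20.5% of all features). Gdf6, a growth factor of joint formation, stood at 4.26 and 9.62 CPM in FBS, 26.3 and 28.0 CPM in MS−, and 23.8 and 29.4 CPM in MS+. Its difference from FBS was 1.88 in MS+ (limma adjusted p = 0.0181) and 1.91 in MS− (0.0235). Bmp2 stood at 6.55 and 19.7 CPM in FBS, 19.0 and 26.9 CPM in MS−, and 42.5 and 51.2 CPM in MS+, a difference of 1.93 in MS+ (0.0412). Smo, the transducer of Hedgehog signals, fell by 0.71 in MS+ (0.03). The ligands Shh, Fgf4, Fgf8, Bmp7 and Wnt7a had no read in any library. Other ligands of the list were expressed, namely Fgf10 at 15.8 to 25.0 CPM and Bmp4 at 9.15 to 19.1 CPM. Wnt5a ranged from 7.04 to 9.28 CPM and Wnt9a from 4.68 to 9.76 CPM.

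In the retinoic acid list, with 7 of 17 genes tested, Cyp26b1 rose against FBS in both rat sera and Rara, a receptor, fell in MS+ by 0.57 (limma adjusted p = 0.0428). Cyp26b1, which breaks down retinoic acid and thereby sets proximal and distal limb levels, stood at 1.64 and 1.66 CPM in FBS, 11.2 and 19.2 CPM in MS−, and 31.5 and 42.2 CPM in MS+. Its difference was 3.82 in MS+ (limma adjusted p = 0.00249) and 2.56 in MS− (0.0053), and it passed without any 1 of the 6 libraries. With the block 1 of the 7 genes rose and 1 fell against FBS in each rat serum. The shares of all features that passed were 9.61% in MS+ and 4.81% in MS− without the block, and 28.2% and 20.5% with it. The synthesis genes Aldh1a1 and Aldh1a2 had no read, and Aldh1a3 had 1 read in all. Rdh10, another synthesis gene of the list, was expressed at 2.98 to 5.32 CPM.

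In the Polycomb and trithorax list, the chromatin proteins that keep Hox genes off or on, 24 of 32 genes were tested. In MS+ against FBS, Eed rose by 0.58 and Ezh2 and Cbx2 fell by 1.19 and 1.12 (limma adjusted p = 0.0379, 0.0134 and 0.0435). In MS− against FBS, Ezh2 fell by 1.38 and Phf19 by 1.49 (0.0106 and 0.0274). With the block 2 rose and 7 fell in MS+, and 2 rose and 3 fell in MS−. Of all features, 9.61% passed in MS+ and 4.81% in MS− without the block, and 28.2% and 20.5% with it. Ezh2, the methyltransferase of the complex, stood at 19.6 and 20.9 CPM in FBS, 6.40 and 7.95 CPM in MS−, and 7.75 and 8.99 CPM in MS+. Every 1 of these calls other than Cyp26b1 was lost without at least 2 of the 6 libraries in turn, and those of Eed, Cbx2, Phf19, Smo and Rara without any 1 of them. In MS+ against MS−, no gene of the 3 lists passed limma's test, and with the block 4 rose and 3 fell, beside 10.1% of all features. The medians of the lists lay between −0.29 and 0.10 in MS+ against FBS.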

How the data were processed

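Poly(A)-enriched RNA of 6 cultures was sequenced, and reads were filtered by the company. The authors aligned them to rn4 with Bowtie2 (2.1.0 per the labels), counted reads per transcript with HTSeq (0.5.4p3, intersection-nonempty mode) and normalized the counts to library size with TMM factors from edgeR. The deposited values are this normalized signal, in CPM. Reads that this mode cannot assign to 1 transcript are not counted, and the sources used here do not say whether strand was used. Rows of overlapping genes (4 of the 44 expressed genes) and of closely similar paralogs are therefore uncertain.

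Whole reads were recovered from the steps between low values, with 100% of values whole within a tolerance of 1e-06. Coordinates are rn4 as deposited, written 1-based. By accession, 63 of the 68 genes matched the RefSeq gene table of GRCr8, which was used for names. Promoter windows, cut to the 250 bases before the start, were matched by symbol and exist for 40 of the 68 genes.

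The 9820 features with 1 CPM or more in both libraries of a setting were kept. They were tested with limma 3.58.1 (R 4.3.3, eBayes with trend, two-sided) on log2(CPM + 1), with culture setting as the term, all 6 libraries, and Benjamini-Hochberg adjustment over all features. On this scale, changes of genes with few reads come out too small. The study used limma-voom, which was run as an alternative together with edgeR 4.0.16 and DESeq2 1.42.0 on the recovered reads, other scalings, a pseudocount of 0.1, no filter, and each library left out in turn. The rat names in the labels pair the libraries, and the differences between the rats correlated across features by 0.49 to 0.62 between settings, so the rat was also used as a block. The fit without the block was also run on simulated counts with a fixed spread and no difference between rats. These data do differ between rats, so the simulation does not speak to the choice between the fits with and without the block. Without molecular identifiers, a floor of 3 reads stands for counting error alone.

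The genes and lists were chosen with earlier results of these data known. Values in every library are given for genes chosen by rule: the 12 expressed genes of highest mean CPM, those past the adjusted threshold with or without the block, the limb and axis genes, Hox groups 9 to 13, and the 3 genes with the smallest and the 3 with the largest range over libraries. Other genes are given by range, and a few genes are not reported here. Of the pathway lists, genes past the adjusted threshold are named. A list of Hox antisense RNAs found no row by symbol.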

Additional observations from a re-analysis of the deposited data

How the results depend on the processing

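The number of expressed patterning genes was 44, and 39 to 48 under the other definitions. In MS+ against MS−, 0 genes passed, and this became 1 with the replicate block, while leaving out each library in turn gave 0 to 0. In MS+ against FBS, 2 genes passed, against 16 with the replicate block, and leaving out each library in turn gave 0 to 2. In MS− against FBS, 1 gene passed. With library totals 2 passed, with edgeR 2, with limma-voom 2 (each time Prrx2 and Msx1), with DESeq2 2 (Prrx2 and Dlx2), and with the replicate block 7, and leaving out each library in turn gave 0 to 2. Leaving out a library of the group compared with FBS leaves 1 sample there, which is assumed to vary like the other groups. The cause of these changes was not tested. Of the single genes, in MS+ against FBS, the difference of Hoxd13 turned from 0.76 to −0.0033 without FBS replicate 1, and that of Sim2 from −0.76 to a range of −2.65 to 1.12 over the left-out libraries, above 0 without FBS replicate 2 (1.02) and without MS+ replicate 1 (1.12). Other scalings moved the median of all features by at most 0.05 on the log2 scale. The 6 genes that differed between the rats were 6 with a pseudocount of 0.1, 6 with library totals and 9 at a limit of 1.5-fold. Depth limits the genes with few reads, above all Sim2 and Hoxa11 in rat 1, Hoxa2, Hoxa7 and Tbx19.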

Other observations

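Other genes of limb and skeletal development separated the rats, and they were picked out after their values were seen. Emx2, a homeobox gene of the shoulder and hip girdle, stood at 11.8 and 29.8 CPM in FBS, 13.5 and 31.8 CPM in MS−, and 12.6 and 33.0 CPM in MS+. Grem1, the BMP antagonist of the limb bud, stood at 258 and 516 CPM in FBS, 371 and 562 CPM in MS−, and 453 and 721 CPM in MS+. Every library of rat 2 was above every library of rat 1 for both genes. Cdh11, the adhesion gene of synovial fibroblasts, stood at 397 and 763 CPM in FBS, 374 and 668 CPM in MS−, and 520 and 817 CPM in MS+, in the same direction. Ibsp, a bone matrix gene, stood at 0.164 and 1.33 CPM in FBS, 0.549 and 12.7 CPM in MS−, and 0.541 and 8.99 CPM in MS+. Its highest values were in rat 2 under both rat sera, while Sp7 had no read.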
